A study of Mus musculus with 6 samples.

Results

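A set of 10 genes of fatty acid synthesis were followed in bulk RNA of the mouse embryonic growth plate, the cartilage in which long bones lengthen. The set held Acly, Acss2, Me1, Acaca, Acacb, Fasn, Elovl6, Scd1, Scd2 and Srebf1, taken by gene symbol, and all 10 were found among the 46078 genes of the count tables. Growth plates of the distal femur and proximal tibia were collected at E18.5 for 3 Idh1 mutant libraries (Col2a1-Cre; Idh1 LSL/+) and 3 control libraries (Idh1 LSL/+). Both groups carried the Idh1 allele in which a mutant isocitrate dehydrogenase lies behind a lox-stop-lox (LSL) cassette, and only the mutants also carried Cre under regulatory elements of type 2 collagen, so the effects of Cre and of mutant Idh1 cannot be told apart. Counts per gene do not separate the mutant from the wild-type Idh1 transcript, and recombination was therefore not checked here. The controls were littermates according to the methods, but the labels do not say which animals shared a litter, and a note on animal care in the labels speaks of 2-month-old animals while the age given for every sample is embryonic.

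Fatty acids are built in the cytosol from acetyl-CoA, which ATP citrate lyase (Acly) makes from citrate and acyl-CoA synthetase short-chain family member 2 (Acss2) from acetate, while malic enzyme 1 (Me1) supplies NADPH as the reducing agent. Acetyl-CoA carboxylases (Acaca, cytosolic, and Acacb, at the outer mitochondrial membrane) turn acetyl-CoA into malonyl-CoA, and fatty acid synthase (Fasn) joins these units into palmitate. Elovl6 lengthens palmitate, the stearoyl-CoA desaturases Scd1 and Scd2 place a double bond in the product, and the transcription factor SREBP-1, encoded by Srebf1, switches on most of these genes. Wild-type Idh1 is itself a cytosolic source of NADPH, and the mutant enzyme instead consumes NADPH to make D-2-hydroxyglutarate.

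None of the 10 genes passed the test between the groups. In edgeR's quasi-likelihood test over all 16813 genes tested, 0 of the 10 had an adjusted p under 0.05, beside 32 genes (0.190%) in the whole transcriptome, 9 higher and 23 lower in the mutants. At an unadjusted p under 0.05 the count was also 0 of 10 with edgeR, DESeq2 and limma-voom, beside 8.64% of all genes with edgeR, and each tool called 0 of the 10 after adjustment. Under other settings of edgeR the count at an unadjusted p under 0.05 was 0 of 10 (at least 10 counts in every library), 1 of 10 (upper-quartile factors, library totals alone, replicate number as a block) or 2 of 10 (no low-count filter). With 1 library left out it was 2 of 10 without control 2 (Elovl6 and Acss2). It was 1 of 10 without control 3 (Srebf1) or mutant 3 (Elovl6), and 0 of 10 without control 1, mutant 1 or mutant 2. The 3 mutant and 3 control libraries overlapped for every one of the 10 genes, while they did not overlap for 14.4% of all genes tested. The log2 fold changes of mutant against control lay between -0.32 (Acss2) and 0.19 (Srebf1), 6 above 0 and 4 below, with a median of 0.02 beside a median of -0.0026 over all genes tested. These tests do not show that the genes were equal: the 95% intervals of the log2 fold changes spanned from 0.357 (Scd1) to 0.823 (Acacb) log2 units.

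**Figure D1:**
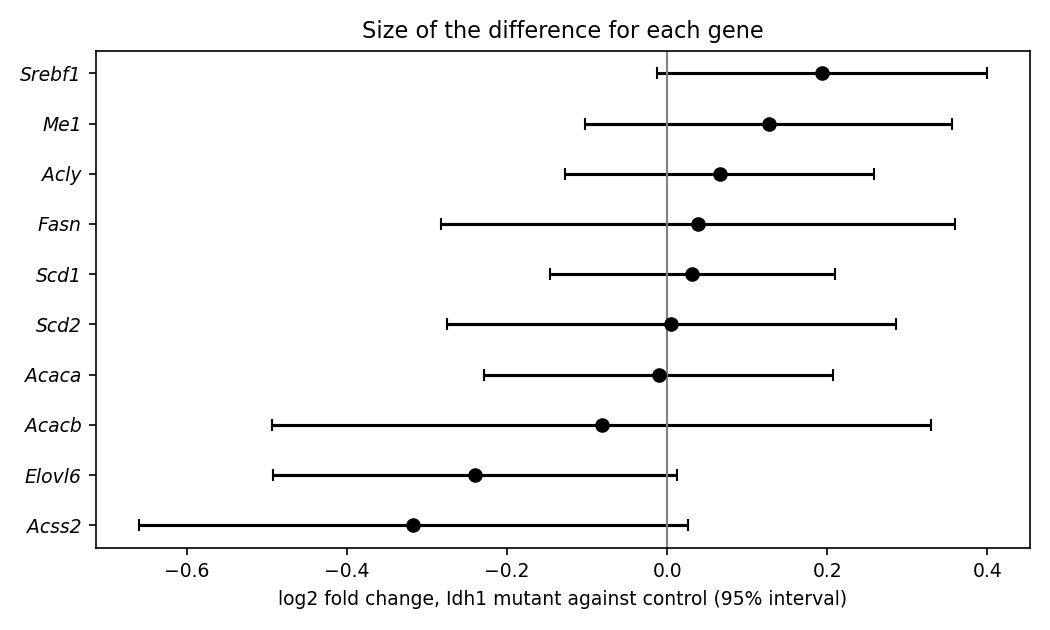
Log2 fold change of each gene in Idh1 mutant against control growth plates (point) with its 95% interval from edgeR (bar), ordered by size. All 10 intervals include 0, and those of Srebf1, Elovl6 and Acss2 reach only slightly past it.

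Library totals lay between 23445687 and 30415773 counts, so that 3 counts corresponded to at most 0.128 CPM (counts per 1000000, here with totals scaled by TMM factors except for this limit), and the 10 genes together took between 0.105% (control 2) and 0.135% (control 1) of a library. The defining cartilage genes were present in all 6 libraries, Col2a1 at 1923 to 5245 CPM, Acan at 711 to 895 CPM and Sox9 at 75.1 to 121 CPM. Defining markers of adipocytes, a cell type rich in these enzymes, were mostly near 0. Of 11 adipocyte markers 7, among them Adipoq, Plin1 and Lep, stayed under 10 counts in every library, and the summed level of the list was 142 to 154 CPM in controls and 130 (129.6) to 152 CPM in mutants, most of it from Fabp4 (109 to 135 CPM), which other cells also express. Genes of other cell types were present in every library, and the sum of 10 muscle markers (17057 to 24981 CPM in controls, 16095 to 23518 in mutants) exceeded that of 12 chondrocyte markers (4693 to 9740 and 7112 to 10243 CPM). Of the 7 osteoblast markers Col1a1, which fibrous tissues also express, stood at 33199 to 47781 CPM, and the other 6 summed to 325 to 1304 CPM in controls and 1243 to 1988 CPM in mutants. Lists that did not overlap between groups were 7 erythroid markers, at 551 to 1591 CPM in controls and 291 to 431 CPM in mutants, 5 tendon markers, at 2993 to 3288 and 2004 to 2341 CPM, and 6 macrophage markers, at 247 to 259 and 266 to 357 CPM. Schwann cell, epidermal and endothelial sums overlapped. Among all the markers 2 passed the test, the tendon gene Tnmd (504 ± 58.6 CPM in controls, 288 ± 31.9 in mutants, log2 fold change -0.81, adjusted p = 0.0374) and the basal keratin Krt5 (5.46 ± 2.47 and 0.239 ± 0.208 CPM, log2 fold change -4.46, adjusted p = 0.0355), both lower in every mutant. The endothelial markers Emcn and Kdr were higher in every mutant (log2 fold changes 0.30 and 0.25) but had adjusted p of 0.323 and 0.324, and the osteoblast marker Dmp1 was higher in every mutant by 1.75 with an adjusted p of 0.522. Mutant 3 differed from the other 5 libraries in having 26356 counts of Xist, against at most 13, and 0 counts over 4 Y-linked genes, against at least 3871. By these counts mutant 3 came from female and the other 5 libraries from male embryos. Sex was thus not balanced between the groups, and the model did not hold it. In bulk RNA of this kind, fewer cells of a type and less RNA per cell cannot be told apart, and the part of cell makeup in the values below was not tested.

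Several of these genes have close relatives, and what their transcripts share sets which reads could be assigned to them, since reads were 50 bases long and those with more than 1 position or gene stayed out of the counts. Scd1 and Scd2 lie on opposite strands of the same region of chromosome 19, and their coding sequences were identical at 962 of 1065 aligned positions (90.3%). The longest identical stretch of the coding sequences, 147 bases, is printed first, because a read that falls wholly within it could come from either gene. It lies at chr19:44400341-44401805 on the minus strand for Scd1 and at chr19:44299702-44301245 on the plus strand for Scd2 (GRCm38), in 2 exons each. Next come the 60-base windows with the most differing positions (11, in capitals) when aligned without gaps in the register of that stretch. The start of the coding sequences was not searched, so windows there could differ more. The windows shown lie in the 3′ part of the coding sequence, at chr19:44397924-44397983 (minus) and chr19:44303136-44303195 (plus). They show the kind of difference by which reads of the 2 genes are told apart.
Scd1 and Scd2, shared: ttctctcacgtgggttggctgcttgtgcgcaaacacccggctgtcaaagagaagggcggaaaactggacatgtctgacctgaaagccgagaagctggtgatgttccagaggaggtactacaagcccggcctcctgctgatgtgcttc
Scd1, window: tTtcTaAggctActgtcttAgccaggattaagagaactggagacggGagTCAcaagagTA
Scd2, window: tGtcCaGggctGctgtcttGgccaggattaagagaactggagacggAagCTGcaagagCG
Over the whole principal transcript, 4.66% of 50-base runs of Scd1 and 4.01% of those of Scd2 occurred in a transcript of another gene (GENCODE M21), so most of either transcript was its own.

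The carboxylases Acaca and Acacb were less alike, with 72.3% identity over their aligned coding sequences and no shared stretch longer than 29 bases, below the read length. That stretch lies at chr11:84312832-84312860 in Acaca and chr5:114228636-114228664 in Acacb, both on the plus strand. Acaca instead shared 4974 of its 9464 runs of 50 bases (52.6%) with Gm5182, a processed pseudogene on chromosome 12, and the longest common stretch was 663 bases. The first 120 bases of that stretch, from 2 exons at chr11:84292972-84293953, are shown as an example of Acaca sequence that does not identify the gene in a 50-base read.
Acaca and Acacb, shared: aaccacatcttcctcaactttgtgcccac
Acaca and Gm5182, shared: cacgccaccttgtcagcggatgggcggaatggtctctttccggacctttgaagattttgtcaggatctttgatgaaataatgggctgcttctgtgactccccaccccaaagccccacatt
For Me1 the share was 33.4%, most of it with the pseudogene Gm7049 on chromosome 13, and for the other members it was at most 7.43% (Acss2). Neither pseudogene was listed under these names in the count tables, and how the alignments treated such reads was not tested.

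The first enzymes of the pathway, those that supply acetyl-CoA and NADPH, were Acly, Acss2 and Me1. Acly (ENSMUSG00000020917, chr11:100476353-100528000, minus strand) was at 144, 128 and 134 CPM in controls 1 to 3 and 135, 136 and 154 CPM in mutants 1 to 3. Mutant 3 was the highest and control 2 the lowest library, and the means of 135 ± 8.31 and 142 ± 10.7 CPM (SD, n = 3 each) differed by a log2 fold change of 0.07 with a standard error (SE) of 0.09 and an adjusted p of 0.898. Without mutant 3 the log2 fold change was 0.00085. Acss2 (ENSMUSG00000027605, chr2:155517948-155585724, plus strand) had the most negative fold change of the 10 genes. Its level was 21.4, 17.6 and 26.6 CPM in controls and 18.4, 19.0 and 15.3 CPM in mutants, so that control 2 lay within the range of the mutants. The log2 fold change was -0.32 (SE 0.15, 95% interval -0.66 to 0.03, adjusted p = 0.627), and -0.45 without control 2. Without control 3 it was -0.15, when that of Elovl6 (-0.18) was the more negative. Exons of Acss2 overlap those of Acss2os, Gss and Ggt7 on the opposite strand over 335, 395 and 197 bases, and since strand was not used in counting, reads in the overlaps could not be assigned and were left out. Me1 (ENSMUSG00000032418, chr9:86581371-86695953, minus strand) was at 24.1, 19.8 and 20.1 CPM in controls and 23.6, 22.5 and 23.6 CPM in mutants. The mutant values lay within the control range, and the log2 fold change was 0.13 (SE 0.10, adjusted p = 0.806), 0.22 without control 1 and 0.08 without control 2.

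Malonyl-CoA is made by the carboxylases, of which Acaca serves synthesis and Acacb is known mainly for holding back fatty acid entry into mitochondria in muscle and heart. Acaca (ENSMUSG00000020532, chr11:84129672-84401651, plus strand) was at 49.9, 41.4 and 45.5 CPM in controls and 46.3, 41.1 and 48.3 CPM in mutants, with means of 45.6 ± 4.22 and 45.2 ± 3.72 CPM and a log2 fold change of -0.01 (SE 0.10, adjusted p = 0.990) that became 0.06 without control 1 or without mutant 2. Acacb (ENSMUSG00000042010, chr5:114146535-114250761, plus strand) was at 15.1, 21.3 and 23.2 CPM in controls and 21.6, 20.3 and 14.5 CPM in mutants. Each group thus held one low library, control 1 and mutant 3, and the log2 fold change was -0.08 with the widest interval of the 10 genes, -0.49 to 0.33 (SE 0.18, adjusted p = 0.953). Without control 3 it was 0.05 and without mutant 3 it was 0.07. The same 2 libraries had the lowest sums of muscle markers, 17057 and 16095 CPM, and control 3 and mutant 1, with the highest Acacb levels, had the highest, 24981 and 23518 CPM. This is a description of 6 libraries, and the part of muscle RNA in the level of Acacb was not tested.

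Fasn (ENSMUSG00000025153, chr11:120805940-120824178, minus strand), the synthase itself, was at 200 (199.7), 149 (148.5) and 235 CPM in controls and 193, 199 (198.7) and 207 CPM in mutants. The controls held both the lowest and the highest library and enclosed all mutants. Group means were 194 ± 43.6 and 200 (199.7) ± 7.24 CPM, a log2 fold change of 0.04 (SE 0.14, 95% interval -0.28 to 0.36, adjusted p = 0.969). Its direction rested on single libraries, since the log2 fold change was -0.12 without control 2 and 0.20 without control 3.

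Elovl6 (ENSMUSG00000041220, chr3:129532355-129638495, plus strand), which lengthens palmitate to stearate, was at 53.5, 42.8 and 54.1 CPM in controls and 41.9, 38.5 and 46.9 CPM in mutants. Controls 1 and 3 lay above every mutant, while control 2 lay below mutant 3. The means were 50.1 ± 6.35 and 42.4 ± 4.22 CPM, and the log2 fold change of -0.24 (SE 0.11, 95% interval -0.49 to 0.01) had an unadjusted p of 0.0600 and an adjusted p of 0.615. That was the lowest adjusted p among the 10 genes. With 1 library left out the log2 fold change lay between -0.34 (without control 2) and -0.17 (without mutant 2).

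The desaturases differed far more in level than between the groups. Scd2 (ENSMUSG00000025203, chr19:44293676-44306864, plus strand), the isoform known for its expression in the embryo and brain, was at 693, 512 and 703 CPM in controls and 630 (630.3), 643 and 643 CPM in mutants. Scd1 (ENSMUSG00000037071, chr19:44394451-44407709, minus strand), the isoform of adult liver, fat and skin, was at 37.9, 37.7 and 39.2 CPM in controls and 37.0, 41.4 and 38.9 CPM in mutants. For Scd2 control 2 was low and the mutants lay together between the controls, and for Scd1 all 6 libraries lay close. The log2 fold change was 0.01 (SE 0.13, 95% interval -0.27 to 0.29, adjusted p = 0.996) for Scd2 and 0.03 (SE 0.08, 95% interval -0.15 to 0.21, adjusted p = 0.957) for Scd1. That of Scd2 was -0.13 without control 2, and that of Scd1 was -0.0060 without mutant 2. Per length of exon, the level of Scd2 was 16.2, 12.0 and 15.9 times that of Scd1 in controls (mean 14.7 ± 2.33) and 15.1, 13.8 and 14.6 times in mutants (mean 14.5 ± 0.677). The mutant ratios lay within the control range, and with the 50-base runs shared with other genes left out of the lengths the mean control ratio was 14.6.

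Srebf1 (ENSMUSG00000020538, chr11:60199089-60222581, minus strand), the regulator of the pathway, had the most positive fold change of the 10 genes. Its level was 83.8, 76.2 and 94.7 CPM in controls and 102, 95.6 and 94.1 CPM in mutants, so that control 3 lay between mutants 3 and 2 while the other controls lay below every mutant. The means of 84.9 ± 9.29 and 97.0 ± 3.93 CPM differed by a log2 fold change of 0.19 (SE 0.09, 95% interval -0.01 to 0.40, unadjusted p = 0.0635, adjusted p = 0.625). It fell to 0.13 without control 2 and rose to 0.28 without control 3. Without control 1 it was 0.18, below the 0.22 of Me1. Gene counts do not separate the transcripts of Srebf1 that start at different promoters and encode SREBP-1a and SREBP-1c.

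**Figure D2:**
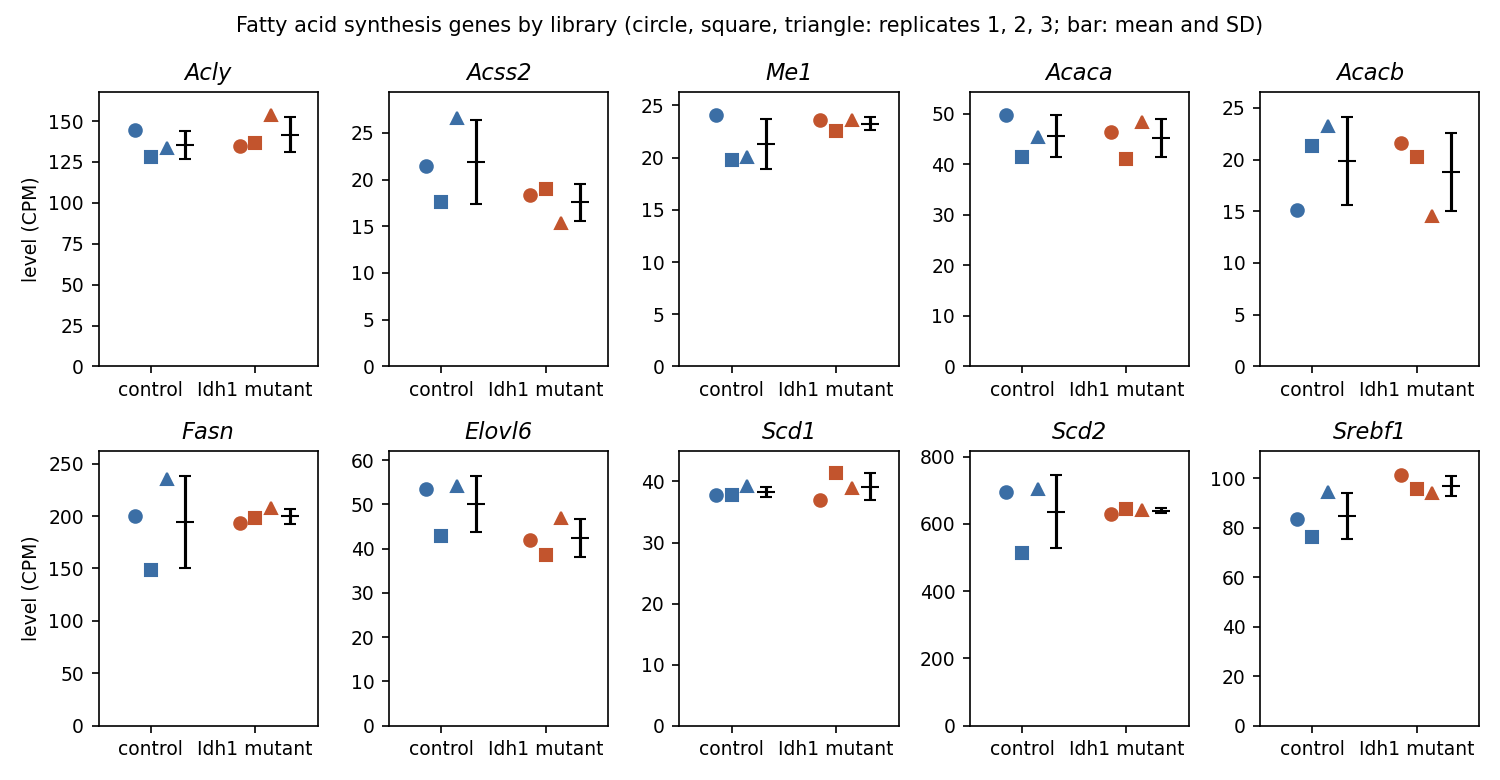
Level of each gene in CPM (linear axes from 0) in the 3 control (blue) and 3 Idh1 mutant (red) libraries, with the mean and SD of each group in black. The groups overlap in all 10 panels, and control 2 (blue square) is the lowest library for Acly, Me1, Fasn, Scd2 and Srebf1.

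Between genes, levels can be compared only per length. In controls, with all exons of a gene as its length, the order was Scd2 (117 CPM per kb), Acly (25.6), Fasn (19.7), Srebf1 (15.1), Scd1 (7.91), Elovl6 (7.79), Me1 (5.54), Acaca (2.67), Acss2 (2.15) and Acacb (2.06). In mutants the levels per kb were 117 for Scd2, 26.8 for Acly, 20.3 for Fasn, 17.2 for Srebf1, 8.09 for Scd1, 6.59 for Elovl6, 6.04 for Me1, 2.65 for Acaca, 1.73 for Acss2 and 1.95 for Acacb. Over the 6 libraries the ranges of neighbours in this order overlapped for Fasn and Srebf1, for Scd1 and Elovl6, for Elovl6 and Me1, for Acaca and Acss2 and for Acss2 and Acacb, although Fasn stood above Srebf1, Elovl6 above Me1 and Acaca above Acss2 within each of the 6 libraries. Scd1 stood above Elovl6 in 4 libraries and Acss2 above Acacb in 2, so the order within these pairs is not resolved. Scd2 stood above Acly, Acly above Fasn, Srebf1 above Scd1, and Me1 above Acaca in all libraries.

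The order below Acly depended on the length used. With the whole principal transcript as length, the control level of Acaca was 4.79 CPM per kb and that of Acss2 7.46. Another scale kept all counts but took as length only the 50-base runs of that transcript that occur in no other gene. Acaca was then at 10.2 CPM per kb and Acss2 at 8.20, beside 2.27 for Acacb. Acaca moved from place 8 to place 5 and Scd1 (8.39) from place 5 to place 8. Acaca, Me1 (9.87), Elovl6 (8.90), Scd1 and Acss2 lay close on this scale. Their ranges over the libraries were not compared on it, so their order is not resolved. In control means on this scale Srebf1 (20.3) stood above Fasn (19.4), as it did with the length of the principal transcript (19.7 and 19.3). The order of Srebf1 and Fasn was not compared by library on these scales, so it is not resolved there. The level of Acaca per length was 1.36 ± 0.439 times that of Acacb in controls and 1.41 ± 0.404 times in mutants over all exons, but 4.68 and 4.86 times (means) over the unshared runs. Likewise Fasn was at 7.37 ± 1.42 and 7.68 ± 0.612 times the level of Acaca over all exons and at 1.91 and 1.99 times over the unshared runs. For the acetyl-CoA enzymes, Acly was at 12.2 ± 2.29 times the level of Acss2 in controls and 15.8 ± 3.10 times in mutants over all exons and at 3.90 and 5.03 times over the unshared runs. Most of this shift came already with the whole principal transcript as length, where control levels were 30.8 CPM per kb for Acly and 7.46 for Acss2. Scd2 and Acly led on each of the scales. Over all exons the control and mutant libraries overlapped in each of these ratios. For Acly to Acss2 they did so only narrowly, at 9.65 to 14.0 in controls and 13.8 to 19.3 in mutants. The ratios were not tested between the groups.

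**Figure D3:**
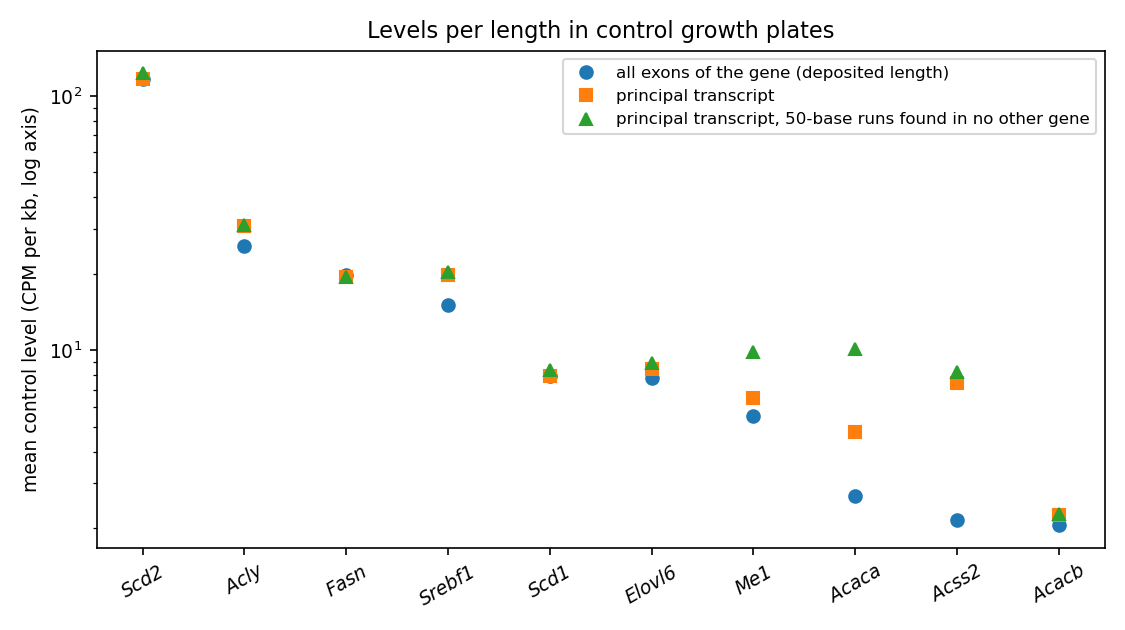
Mean level in the 3 control libraries per kb (log axis), with all counts of a gene. The length was all exons of the gene (circles), the principal transcript (squares) or its 50-base runs found in no other gene (triangles). Scd2 leads at 117 to 123 CPM per kb, and Acaca and Acss2 rise from 2.67 and 2.15 to 10.2 and 8.20 CPM per kb between the first and the last scale.

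Within the groups, the controls varied more than the mutants. The median coefficient of variation (SD over mean) of the 10 genes was 12.0% in controls and 6.59% in mutants, and it was larger in controls for 8 of the 10 genes. Among the 7784 tested genes with control levels in the same range (19.9 to 636 CPM) it was larger in controls for 63.0%, with medians of 7.92% and 6.07%. The contrast was widest for Scd2 (16.9% against 1.12%) and Fasn (22.4% against 3.62%), and both were lowest in control 2 and highest in control 3. Control 2 was the lowest library for 5 of the 10 genes, Acly, Fasn, Scd2, Srebf1 and Me1, as it was for 19.6% of all genes tested. It was the highest for 0 of the 10, beside 21.7% of all genes tested. Control 3 was the highest library for 5, Acacb, Fasn, Scd2, Elovl6 and Acss2, as it was for 19.7% of all genes tested. Control 2 also had the highest erythroid sum of all libraries, 1591 CPM, and control 3 the lowest chondrocyte sum, 4693 CPM. The erythroid sum was lower in every mutant (291 to 431 CPM) than in any control, while Fasn and Scd2 in mutants lay between the controls. The osteoblast sum, mostly Col1a1, was also lowest in control 2 (33964 CPM) and highest in control 3 (48106 CPM). The part of any of these in the levels of Fasn and Scd2 was not tested.

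**Figure D4:**
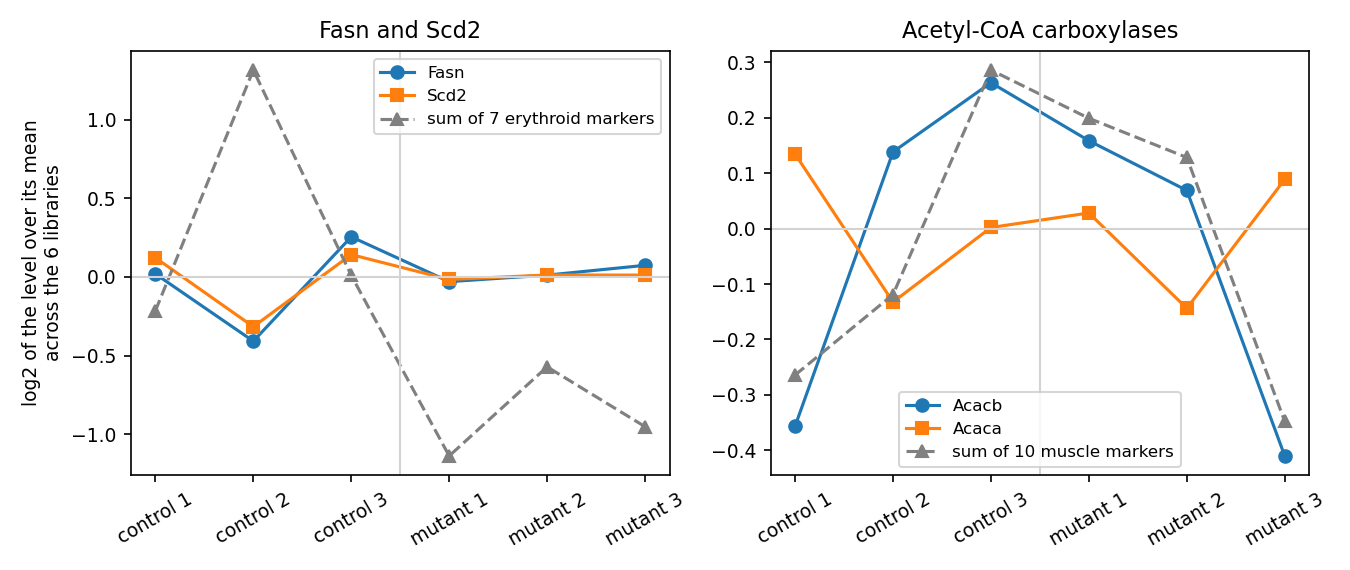
Left, log2 of the level of Fasn, Scd2 and the sum of 7 erythroid markers over their means across the 6 libraries; right, the same for Acaca, Acacb and the sum of 10 muscle markers. Fasn and Scd2 dip in control 2, where the erythroid sum peaks at 1591 CPM. In mutants the erythroid sum is lower than in any control, while Fasn and Scd2 lie between the controls. Acacb, but not Acaca, is low in control 1 and mutant 3, where the muscle sum is lowest.

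In the regions upstream of these genes, 11 RefSeq windows (GRCm38.p6, 250 bases before to 50 after a start) covered 8 of the 10 genes, with none for Scd1 and Scd2. Motifs were searched on both strands. The letters CCAAT, bound by NF-Y, which acts with SREBPs at lipid genes, occurred in 7 of the 11 windows, from 6 genes (Acacb, Acly, Acss2, Fasn, Me1 and Srebf1), beside 37.4% of 32851 windows of all genes. GGGCGG, the GC box bound by Sp1, occurred in 5 of the 11, from 4 genes (Acly, Acss2, Me1 and Srebf1), beside 35.7% of all windows, and neither the sterol element core TCACNCCAC (1.24% of windows) nor the E-box CACGTG (7.15%) occurred in a window of the 8. The 250 bases upstream of the RefSeq start of Fasn (chr11:120824548-120824797, minus strand), which lie at least 370 bases beyond the 5′ end of the gene as counted, are shown because they held the most CCAAT matches of the 11 windows, 3, in capitals on either strand, the last 2 of them overlapping.
Fasn upstream: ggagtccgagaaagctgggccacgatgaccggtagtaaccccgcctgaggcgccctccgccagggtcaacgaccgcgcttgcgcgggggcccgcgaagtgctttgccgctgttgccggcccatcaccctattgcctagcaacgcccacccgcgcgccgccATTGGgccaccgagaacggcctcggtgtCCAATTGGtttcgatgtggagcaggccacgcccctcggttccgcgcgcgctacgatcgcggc
These letters are a description, and their absence from a window says nothing on binding elsewhere.

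The genes around the pathway were listed by role, 94 in all, of which 91 were tested, and 0 of the 91 passed the threshold beside 0.190% of all genes. The log2 fold change was above 0 for 53 and below 0 for 38, with a median of 0.03, beside 8293 above and 8520 below 0 among all genes tested. An unadjusted p under 0.05 was reached by 8 of the 91 with edgeR, 5 with DESeq2 and 8 with limma-voom, beside 1452, 1236 and 1427 of all genes, and the latter tools also called 0. The share with edgeR was near that of all genes, 8.64%. Groups did not overlap for 8 of the 91, 3 higher and 5 lower in the mutants, beside 14.4% of all genes. The genes named are the 3 with the lowest p in each list.

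Among 9 further genes of precursor and NADPH supply, 0 had an unadjusted p under 0.05 and the median log2 fold change was -0.0042. The malic enzymes Me3 and Me2 had log2 fold changes of -0.37 and 0.07, and the mitochondrial acetate enzyme Acss1 -0.23, with adjusted p of at least 0.676. Of 11 further genes of elongation, 4 had log2 fold changes above 0 and 7 below. Hacd4, a dehydratase-like protein of the elongation cycle, was at 14.8, 13.6 and 11.3 CPM in controls and 9.83, 10.3 and 10.3 CPM in mutants, lower in every mutant than in any control, with a log2 fold change of -0.38 and an adjusted p of 0.429. Elovl2, which lengthens polyunsaturated fatty acids, was also lower in every mutant (log2 fold change -1.08, adjusted p = 0.555), but at no more than 0.817 CPM in any library, and Elovl7 had a log2 fold change of -0.41. Of 8 desaturation genes, 3 lay above 0 and 5 below, led by Fads1, the delta-5 desaturase, with 118, 101 and 127 CPM in controls and 104, 101 and 97.6 CPM in mutants (log2 fold change -0.20, adjusted p = 0.626). Its groups overlapped through control 2, and the electron carriers Cyb5a and Cyb5r3 had log2 fold changes of -0.11 and 0.14.

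The 18 regulators held 7 log2 fold changes above 0 and 11 below. Mid1ip1, which promotes the polymerisation of acetyl-CoA carboxylase, was at 18.3, 15.9 and 17.2 CPM in controls and 11.9, 14.8 and 14.6 CPM in mutants. It was lower in every mutant (log2 fold change -0.31, adjusted p = 0.489), as was Mlxipl, encoding the glucose-responsive factor ChREBP, at 1.85, 2.64 and 1.70 against 1.31, 1.54 and 1.10 CPM (log2 fold change -0.65, adjusted p = 0.555). Insig2, which retains the SREBP escort in the endoplasmic reticulum, had a log2 fold change of 0.19 with overlapping groups. Of 12 genes of fatty acid uptake, binding and activation, 10 lay above 0. Fabp5, a fatty acid binding protein, was at 88.6, 87.2 and 83.0 CPM in controls and 101, 89.7 and 104 CPM in mutants, higher in every mutant (log2 fold change 0.19, adjusted p = 0.563), as was Slc27a3 (0.19, adjusted p = 0.626), while the groups overlapped for the acyl-CoA synthetase Acsl1 (0.23).

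Mitochondrial fatty acid synthesis, a separate route that makes the lipoic acid precursor, was represented by 6 tested genes, 5 of them above 0, with log2 fold changes of 0.17 for Mecr, 0.11 for Ndufab1 and -0.14 for Oxsm. Of 13 glycerolipid genes 7 lay above 0 and 6 below. Plin3, a lipid droplet coat protein, had the lowest adjusted p of the 91 genes, 0.379, with 82.6, 79.2 and 80.8 CPM in controls and 67.7, 70.8 and 68.5 CPM in mutants, lower in every mutant by a log2 fold change of -0.23. Gpam and Lpin1, which act at the first and a later step of triglyceride assembly, had log2 fold changes of -0.15 and 0.14. Of 14 genes of the opposite process, fatty acid oxidation, 13 lay above 0, with a median log2 fold change of 0.12, and 0 were called. Acadl, a long-chain acyl-CoA dehydrogenase, was at 93.1, 84.8 and 96.0 CPM in controls and 126, 122 and 91.4 CPM in mutants (log2 fold change 0.31, adjusted p = 0.514), and mutant 3 lay within the controls. Cpt1a, the mitochondrial carnitine transferase inhibited by malonyl-CoA, had 35.3, 31.8 and 27.5 CPM in controls and 34.1, 40.3 and 40.7 CPM in mutants (log2 fold change 0.28, adjusted p = 0.524), with mutant 1 within the controls. Acaa2 had a log2 fold change of 0.23 with overlapping groups.

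**Figure D5:**
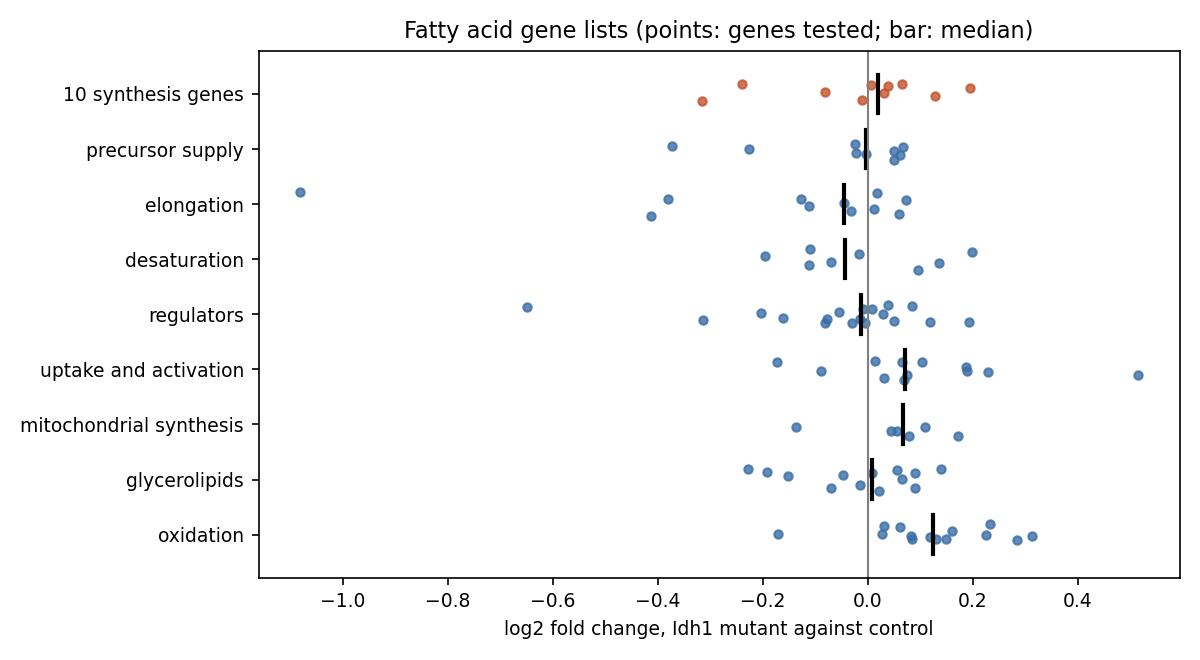
Log2 fold change of mutant against control for each tested gene (points) of the 10 synthesis genes and 8 lists around them, with the median of each list (bar). Medians lie between -0.05 (elongation) and 0.12 (oxidation), and 0 genes passed the threshold.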

How the data were processed

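Total RNA of growth plate cartilage was sequenced in 3 control and 3 Idh1 mutant libraries (oligo-dT mRNA kit, 50-base single-end reads). Per the submitters' processing notes and the study's methods, the authors trimmed reads with Trim Galore 0.6.4, mapped them to GRCm38 with STAR 2.6.1d and counted them on exons with featureCounts 1.6.4. Per the file headers, strand was ignored and only reads with 1 position and 1 gene were counted. The deposited tables hold raw read counts of each gene as whole numbers, and 0 of their value columns went unused.

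From these counts, genes were filtered with filterByExpr (minimum 10 counts, total of at least 15), scaled by TMM and compared by genotype with the quasi-likelihood test of edgeR 4.0.16 (R 4.3.3) over 16813 genes, with Benjamini-Hochberg adjustment and a threshold of 0.05. The study's own model in DESeq2 1.28.1 also held the litter, which the labels do not name. The common dispersion was 0.0173. Since no source ties libraries to litters, p-values measure only the spread between these libraries. Alternatives were DESeq2 1.42.0, limma-voom (limma 3.58.1), upper-quartile factors, library totals alone, no filter, at least 10 counts in every library, the replicate number as a block, and leaving out each library. Plots came from matplotlib 3.10.9 (Python 3.11.15). Intervals cover 95%. Transcripts, exon overlaps and shared 50-base runs came from GENCODE M21, promoters from RefSeq (GRCm38.p6).

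The 10 genes and all lists were chosen with earlier results of these data known. Named are all 10 genes, the 3 with the lowest p of each wider list and any past the threshold, and defining markers. Gpat3, Gpat4 and Cnmd were found under older symbols. Of the 94 listed genes Hsd17b8 was not matched.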

Additional observations from a re-analysis of the deposited data

How the results depend on the processing

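Across the alternatives the number of the 10 genes called stayed at 0, as did that of the 91 genes around them, although the number of all genes called, 32, moved to 193 with DESeq2, 19 with limma-voom and 259 with no low-count filter. Leaving out 1 library at a time gave 3 to 17 called genes. The lowest adjusted p of any of the 10 over the alternatives was 0.421, for Elovl6 without control 2. Of 80 log2 fold changes under another setting 79 kept their direction, and that of Acaca became 0.0013 with upper-quartile factors. Of 60 with 1 library left out 53 kept their direction, and the ranges that crossed 0 were -0.071 to 0.059 for Acaca, -0.25 to 0.075 for Acacb, -0.12 to 0.20 for Fasn, -0.0060 to 0.070 for Scd1 and -0.13 to 0.086 for Scd2, and the causes were not tested. With the replicate number as a replicate block, 3 genes were called with edgeR and 96 with DESeq2, and 0 of the 10. Same-numbered libraries did not deviate together (correlations of deviations -0.160, -0.00678 and -0.150), and no library correlated best with the library of its own number. With 3 libraries a group, differences smaller than the intervals given for each gene could not be resolved, and parts of the Acaca and Me1 transcripts are shared with pseudogenes, whose effect on the counts was not tested.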
